A study of Mus musculus with 10 samples.

Results

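The genes described here are 8 transcription factors of the hepatocyte: Hnf4a, Foxa1, Foxa2, Foxa3, Cebpa, Nr5a2, Nr1h4 and Prox1. They were taken by gene symbol from a table of 55020 gene lines, where each symbol had 1 line, and their expression was compared in 10 subcutaneous tumours of Hepa1-6, a mouse hepatoma line, in C57/BL6 mice. The 5 GSK343 tumours came from mice given GSK343, an inhibitor of EZH2, the enzyme that methylates lysine 27 of histone H3. The 5 vehicle tumours were the controls. Both groups were grown for 4 weeks. Titles beginning with C name no agent and were taken as vehicle because the design has only these 2 conditions. Per the labels' protocols, mice received either a control antibody or anti-asialo-GM1, which depletes natural killer cells. Which tumour had which is not stated, so an effect of the antibody cannot be told apart from the groups. Every tumour came from the same cell line implanted in mice of 1 strain, and each sample also holds whatever host cells had entered it. Values are FPKM, a fragment count scaled by exon length and library size.

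These factors form a network that sets up and keeps the hepatocyte programme. HNF4A is a nuclear receptor that binds direct repeats near apolipoprotein, clotting factor and metabolic genes. FOXA1, FOXA2 and FOXA3 are forkhead proteins that open chromatin at liver enhancers, and they bind many of the same sites. C/EBPα is a leucine zipper factor of mature hepatocytes that restrains their proliferation, and it is also used in the myeloid lineage. NR5A2, known as LRH-1, is a nuclear receptor of bile acid and cholesterol genes. NR1H4, known as FXR, is the bile acid receptor. PROX1 is a homeobox protein of hepatoblasts and lymphatic endothelium that can act as a co-repressor of HNF4A and NR5A2. Albumin (Alb) and apolipoprotein A-I (Apoa1) are liver secretory products whose promoters are classic targets of these factors.

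The promoters of Alb and Apoa1 show where short motifs of these families lie beside the genes used as liver readouts. RefSeq promoters of GRCm38.p6, from 250 bases before to 50 after the transcript start, were matched for all 8 factors and for both liver genes. Searches on both strands used CAAAGTCCA for HNF4, TGTTTAC and TGTTTGC for FOXA, GTTAATNAT for HNF1, TTGCNNAA for C/EBP and CAAGGTCA for NR5A. The Alb promoter, chr5:90460620-90460919 on the plus strand, held a FOXA match at -128 to -122, a C/EBP match at -94 to -87 and an HNF1 match at -32 to -24. The Apoa1 promoter, chr9:46228380-46228679 on the plus strand, held TGTTTGC at -88 to -82 and again at -75 to -69. Capitals mark the matches, and the FOXA and C/EBP matches of Alb are on the opposite strand.
Alb: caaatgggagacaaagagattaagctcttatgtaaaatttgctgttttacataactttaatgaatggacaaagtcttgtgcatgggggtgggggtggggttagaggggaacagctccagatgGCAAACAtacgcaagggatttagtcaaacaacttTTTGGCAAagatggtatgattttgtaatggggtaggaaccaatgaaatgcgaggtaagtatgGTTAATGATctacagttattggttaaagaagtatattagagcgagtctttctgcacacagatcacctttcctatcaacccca
Apoa1: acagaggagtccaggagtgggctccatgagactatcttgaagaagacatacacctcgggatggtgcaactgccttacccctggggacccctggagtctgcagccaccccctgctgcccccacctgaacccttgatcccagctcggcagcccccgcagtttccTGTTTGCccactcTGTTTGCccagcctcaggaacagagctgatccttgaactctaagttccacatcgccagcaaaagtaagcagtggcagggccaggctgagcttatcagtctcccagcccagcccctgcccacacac
Of 32851 promoters of this length, TGTTTGC stood in 5.07%, TGTTTAC in 3.65%, TTGCNNAA in 10.8%, GTTAATNAT in 0.801%, CAAAGTCCA in 0.475% and CAAGGTCA in 1.56%. At least 2 copies of TGTTTGC stood in 76 promoters, 0.231% of them.

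Among the factors' own promoters, 3 of 8 genes had a match to any motif. These genes had 13 promoters searched, since some genes have several. The share of all promoters with a match to any of these motifs was not computed, so whether the count exceeds the background was not tested. The windows below are from the Foxa1 promoter (chr12:57546231-57546266, minus strand, a FOXA match), the Prox1 promoter (chr1:190169614-190169649, minus strand, a FOXA match) and the Nr5a2 promoter (chr1:136960663-136960698, minus strand, an HNF1 match), with the match in capitals. They are shown because they are sites of the same letters beside the factors themselves.
Foxa1: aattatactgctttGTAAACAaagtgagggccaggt
Prox1: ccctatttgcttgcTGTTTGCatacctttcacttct
Nr5a2: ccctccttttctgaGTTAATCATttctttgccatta
A second Nr5a2 promoter also held a C/EBP match. These letters were not found in the windows of Hnf4a, Foxa2, Foxa3, Cebpa and Nr1h4. A match describes letters in a window and was not tested as a binding site.

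All 8 factors were expressed above 1 FPKM in every tumour and so passed the filter of a mean of at least 1 FPKM that 14496 lines passed. By mean level over the 10 tumours, Foxa2 came first at 40.9 FPKM, followed by Hnf4a at 23.6, Foxa3 at 21.8, Cebpa at 16.2 and Prox1 at 5.05 FPKM. Nr5a2 at 3.02, Foxa1 at 2.92 and Nr1h4 at 2.71 FPKM closed the order. Foxa2 exceeded Hnf4a in 10 of 10 tumours, Hnf4a exceeded Foxa3 in 9, Foxa3 exceeded Cebpa in 9, Cebpa exceeded Prox1 in 10 and Prox1 exceeded Nr5a2 in 10. Nr5a2 exceeded Foxa1 in 5 of 10 tumours and Foxa1 exceeded Nr1h4 in 6, so the order of these 3 genes did not hold beyond their spread.

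No factor passed the test between GSK343 and vehicle tumours, with limma and adjustment over all 14496 lines. In all, 12 lines passed, 0.0828% of those tested, of which 10 were higher and 2 lower after GSK343. With 1 tumour left out, the number of lines called was 96 without vehicle replicate 2, 37 without GSK343 replicate 1, 11 without vehicle replicate 3 and 3 to 6 without each of the others, and no factor was called in any of these fits. The fitted difference was below 0 for 7 of 8 factors and above 0 for Cebpa, and the median log2 difference of the 8 was -0.25, against -0.01 over all lines tested, of which 52.4% were below 0. At an unadjusted p under 0.05, 3 of 8 factors (Hnf4a, Foxa1 and Foxa3) were lower, against 6.86% of all lines. Every GSK343 tumour lay below every vehicle tumour for 2 of 8 factors, Foxa1 and Foxa3, against 1.2% of all lines. The 8 factors are few and move together across tumours, as described below, so these counts are not independent of each other.

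**Figure D1:**
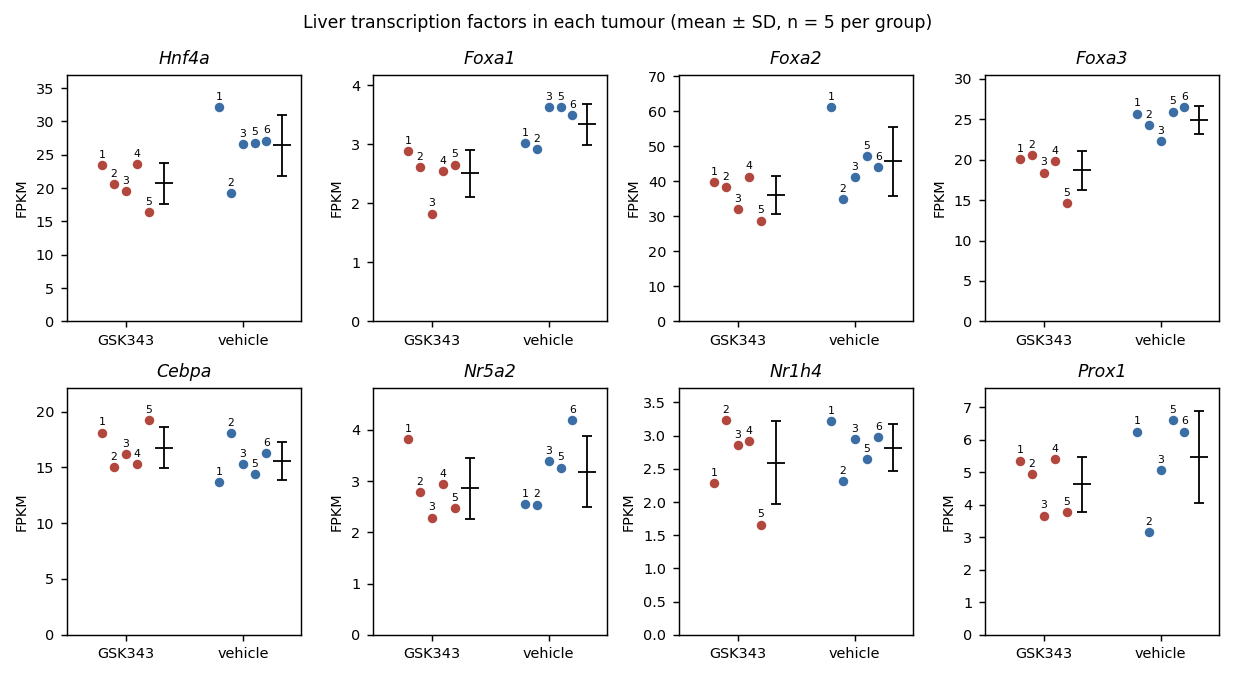
FPKM of each factor (vertical axis, starting at 0) in the 5 GSK343 and 5 vehicle tumours, numbered by replicate, with the mean and SD of each group as a bar beside the points. Foxa1 and Foxa3 have no GSK343 tumour as high as the lowest vehicle tumour, while the groups overlap for the other 6 factors.

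The nuclear receptor Hnf4a (chr2:163506808-163572910, mm10) had a mean in GSK343 tumours of 78.4% of the vehicle mean, with groups that overlapped. Hnf4a measured 23.4, 20.6, 19.5, 23.6 and 16.3 FPKM in GSK343 replicates 1 to 5, against 32.2, 19.3, 26.6, 26.8 and 27.1 FPKM in vehicle replicates 1, 2, 3, 5 and 6. Vehicle replicate 2 lay among the GSK343 tumours, and GSK343 replicate 5 was the lowest of the 10. The means were 20.7 ± 3.02 FPKM in GSK343 tumours and 26.4 ± 4.62 FPKM in vehicle tumours (SD, n = 5 each). The log2 difference was -0.33 (SE 0.137, 95% interval -0.63 to -0.03), with an unadjusted limma p of 0.0358 and an adjusted p of 0.254.

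Of the forkhead genes, Foxa3 had the largest difference relative to its spread. Foxa3 measured 20.1, 20.5, 18.4, 19.8 and 14.6 FPKM in GSK343 replicates 1 to 5, against 25.7, 24.2, 22.3, 25.9 and 26.5 FPKM in vehicle replicates 1, 2, 3, 5 and 6. The groups did not overlap, and GSK343 replicate 5 was again the lowest. Foxa3 (chr7:19013284-19023538) averaged 18.7 ± 2.41 FPKM in GSK343 tumours and 24.9 ± 1.71 FPKM in vehicle tumours, 75.0% of the vehicle mean. The log2 difference was -0.40 (SE 0.0960, 95% interval -0.62 to -0.19), with an unadjusted limma p of 0.00159 and an adjusted p of 0.189.

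Foxa2 (chr2:148042877-148046969), the most abundant factor of the 8, differed by a like amount but with a wider spread. Foxa2 measured 39.7, 38.3, 32.0, 41.3 and 28.8 FPKM in GSK343 replicates 1 to 5, against 61.3, 34.9, 41.1, 47.3 and 44.0 FPKM in vehicle replicates 1, 2, 3, 5 and 6. Vehicle replicate 1 was the highest and stood above all others, while vehicle replicates 2 and 3 lay within the GSK343 range. Foxa2 averaged 36.03 ± 5.39 FPKM in GSK343 tumours and 45.7 ± 9.82 FPKM in vehicle tumours, a log2 difference of -0.32 (SE 0.149, 95% interval -0.65 to 0.01, limma adjusted p = 0.294).

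Foxa1 (chr12:57540628-57546916) was the least abundant forkhead gene. Foxa1 measured 2.89, 2.61, 1.83, 2.55 and 2.66 FPKM in GSK343 replicates 1 to 5, against 3.02, 2.91, 3.64, 3.63 and 3.50 FPKM in vehicle replicates 1, 2, 3, 5 and 6. The groups did not overlap, but the highest GSK343 tumour and the lowest vehicle tumour were close, at 2.89 and 2.91 FPKM. Means were 2.51 ± 0.401 FPKM in GSK343 tumours and 3.34 ± 0.347 FPKM in vehicle tumours, and the log2 difference was -0.31 (SE 0.103, 95% interval -0.54 to -0.08, unadjusted limma p of 0.0118, adjusted p = 0.202). Because 1 FPKM is added before the logarithm, this understates the difference of a gene at this level more than that of Foxa2 or Foxa3.

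Cebpa (chr7:35119293-35121928) was the 1 factor whose mean was higher after GSK343. Cebpa measured 18.1, 15.03, 16.2, 15.3 and 19.3 FPKM in GSK343 replicates 1 to 5, against 13.7, 18.1, 15.3, 14.4 and 16.3 FPKM in vehicle replicates 1, 2, 3, 5 and 6. The groups overlapped over most of their range, with GSK343 replicate 5 the highest and vehicle replicate 1 the lowest. The means were 16.8 ± 1.84 FPKM in GSK343 tumours and 15.6 ± 1.71 FPKM in vehicle tumours, and the log2 difference of 0.10 (SE 0.0948, 95% interval -0.11 to 0.31) did not pass the test (limma adjusted p = 0.589).

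The nuclear receptors of the bile acid axis were low and overlapped between groups. Nr5a2 measured 3.83, 2.78, 2.29, 2.93 and 2.47 FPKM in GSK343 replicates 1 to 5, against 2.55, 2.54, 3.38, 3.26 and 4.19 FPKM in vehicle replicates 1, 2, 3, 5 and 6. Nr5a2 (chr1:136842571-136960448) had its highest values in vehicle replicate 6 and GSK343 replicate 1. Its means were 2.86 ± 0.598 FPKM in GSK343 tumours and 3.19 ± 0.685 FPKM in vehicle tumours, a log2 difference of -0.12 (SE 0.137, 95% interval -0.42 to 0.19, limma adjusted p = 0.687). Nr1h4 measured 2.29, 3.24, 2.86, 2.92 and 1.66 FPKM in GSK343 replicates 1 to 5, against 3.22, 2.32, 2.94, 2.64 and 2.98 FPKM in vehicle replicates 1, 2, 3, 5 and 6. Nr1h4 (chr10:89454234-89533585) was lowest in GSK343 replicate 5 and highest in GSK343 replicate 2, so its extremes both came from treated mice. Its means were 2.59 ± 0.623 FPKM in GSK343 tumours and 2.82 ± 0.349 FPKM in vehicle tumours, a log2 difference of -0.10 (SE 0.132, 95% interval -0.39 to 0.19, limma adjusted p = 0.712).

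Prox1 (chr1:190118035-190170714) had the widest spread in vehicle tumours relative to its mean of the 8 factors. Prox1 measured 5.35, 4.94, 3.66, 5.41 and 3.77 FPKM in GSK343 replicates 1 to 5, against 6.25, 3.16, 5.07, 6.60 and 6.25 FPKM in vehicle replicates 1, 2, 3, 5 and 6. Vehicle replicate 2 was the lowest of all 10 tumours, below every GSK343 tumour, while the 3 highest were vehicle tumours. The means were 4.63 ± 0.852 FPKM in GSK343 tumours and 5.46 ± 1.41 FPKM in vehicle tumours, a log2 difference of -0.18 (SE 0.175, 95% interval -0.57 to 0.21, limma adjusted p = 0.611). Prox1os, the antisense gene of Prox1, averaged 0.677 FPKM and reached 1.22 FPKM, and without a stated strand setting its reads and those of Prox1 cannot be told apart. Hnf4aos, antisense to Hnf4a, reached no more than 0.0763 FPKM.

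**Figure D2:**
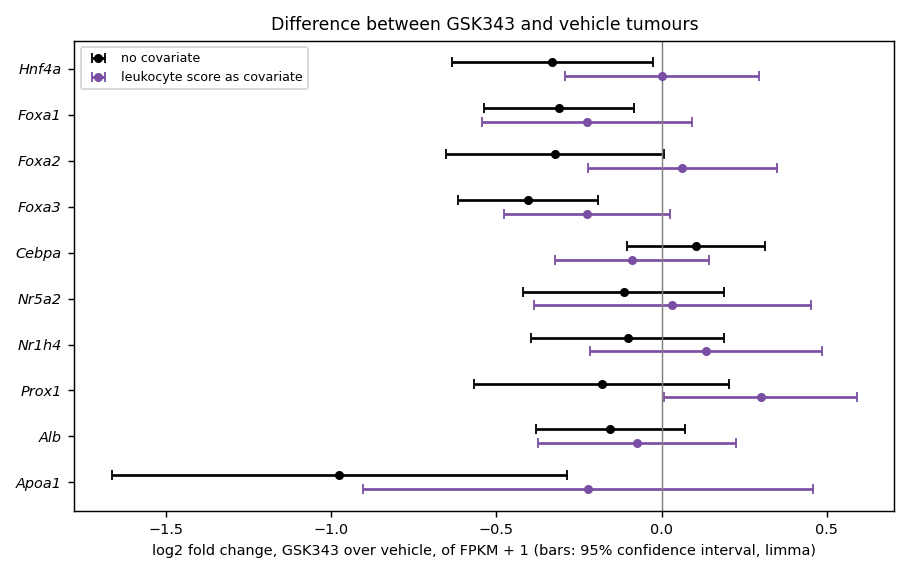
Log2 difference of FPKM + 1, GSK343 over vehicle (horizontal axis), for the 8 factors, Alb and Apoa1, with 95% limma intervals, without a covariate (black) and with the leukocyte score as a covariate (purple). Without the covariate, 7 of 8 factors lie below 0, and with it Hnf4a and Foxa2 lie at 0.00 and 0.06 while Foxa3 and Foxa1 lie at -0.23 each, against -0.40 and -0.31 without it.

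The liver genes differed from each other in how far they moved. Alb (chr5:90460897-90476602), the main plasma protein, measured 3061, 2727, 2380, 2840 and 3042 FPKM in GSK343 replicates 1 to 5, against 3658, 2878, 3100, 3128 and 2882 FPKM in vehicle replicates 1, 2, 3, 5 and 6. The groups overlapped, and the mean was 2810 ± 278 FPKM in GSK343 tumours and 3129 ± 318 FPKM in vehicle tumours (log2 difference -0.16, SE 0.102, limma adjusted p = 0.447). Apoa1 measured 50.05, 37.1, 26.2, 62.2 and 24.3 FPKM in GSK343 replicates 1 to 5, against 138, 57.0, 51.1, 81.0 and 71.4 FPKM in vehicle replicates 1, 2, 3, 5 and 6. Apoa1 (chr9:46228580-46230466), the main protein of high-density lipoprotein, averaged 39.98 ± 16.1 FPKM in GSK343 tumours and 79.7 ± 34.7 FPKM in vehicle tumours, 50.2% of the vehicle mean. Its log2 difference of -0.98 (SE 0.312) also did not pass after adjustment (unadjusted limma p of 0.0101, adjusted p = 0.202). It was -0.22 with the leukocyte score described below as a covariate, -0.63 with Alb as a covariate and -0.61 without GSK343 replicates 3 and 5. The ratio of Apoa1 to Alb was 0.00800 to 0.0219 in GSK343 tumours and 0.0165 to 0.0377 in vehicle tumours.

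Tumour by tumour, Apoa1 followed Foxa2, Hnf4a and Foxa3 closely. The Pearson r of log2(FPKM + 1) between Apoa1 and Foxa2 over the 10 tumours was 0.94 (permutation p = 0.0002, adjusted p = 0.0032 over 16 relations; Spearman rho 0.93). For Hnf4a it was 0.88 (permutation p = 0.00093, adjusted p = 0.00744; rho 0.84) and for Foxa3 it was 0.84 (permutation p = 0.00211, adjusted p = 0.0113; rho 0.82). Without the 2 tumours farthest from the median of Apoa1, vehicle replicate 1 and GSK343 replicate 5, these r were 0.84, 0.71 and 0.80. On deviations from the group means they were 0.92, 0.80 and 0.66, so the relation was also present among tumours of the same treatment. Without GSK343 replicates 3 and 5, which had the highest mitochondrial share, they were 0.89, 0.79 and 0.68.

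An r of at least 0.7 with Apoa1 was reached by 3 of 8 factors, against 9.89% of all lines tested, and 0.200% of lines had an r with Apoa1 as high as that of Foxa2. Prox1 came just under that level, at 0.697, and did not pass (permutation p = 0.0235, adjusted p = 0.0941), while its rank correlation was 0.76 (adjusted permutation p = 0.0467). Its r was 0.63 to 0.91 with 1 tumour left out, 0.61 without the 2 tumours farthest from the median of Apoa1 and 0.49 without GSK343 replicates 3 and 5. Foxa1 had an r of 0.60, Nr1h4 of 0.48, Nr5a2 of 0.33 and Cebpa of -0.62, none of which passed after adjustment (adjusted permutation p = 0.114 for Foxa1 and Cebpa). Alb gave lower r, and no factor reached 0.7 with it, a level reached by 3.24% of all lines. The number was 2 without GSK343 replicate 5 or without vehicle replicate 6, and 1 without GSK343 replicate 4 or without vehicle replicate 1. The highest were Foxa2 at 0.69, Foxa1 at 0.66 and Hnf4a at 0.61, with adjusted permutation p of 0.109, 0.114 and 0.114. Without GSK343 replicate 3 and vehicle replicate 1, the 2 tumours farthest from the median of Alb, the r with Alb was 0.08 for Foxa2 and 0.24 for Hnf4a. The rank correlation of Foxa1 with Alb was 0.78 (adjusted permutation p = 0.0407), and its Pearson r without those tumours was 0.57. GSK343 replicate 5 went against the Alb relation, with the lowest Foxa2, Hnf4a and Foxa3 of all tumours at an Alb level of 3042 FPKM, and without GSK343 replicates 3 and 5 the r with Alb was 0.86 for Foxa2, 0.80 for Hnf4a and 0.34 for Foxa1. With 1 tumour left out, the r of Foxa1 with Alb was 0.31 to 0.83.

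**Figure D3:**
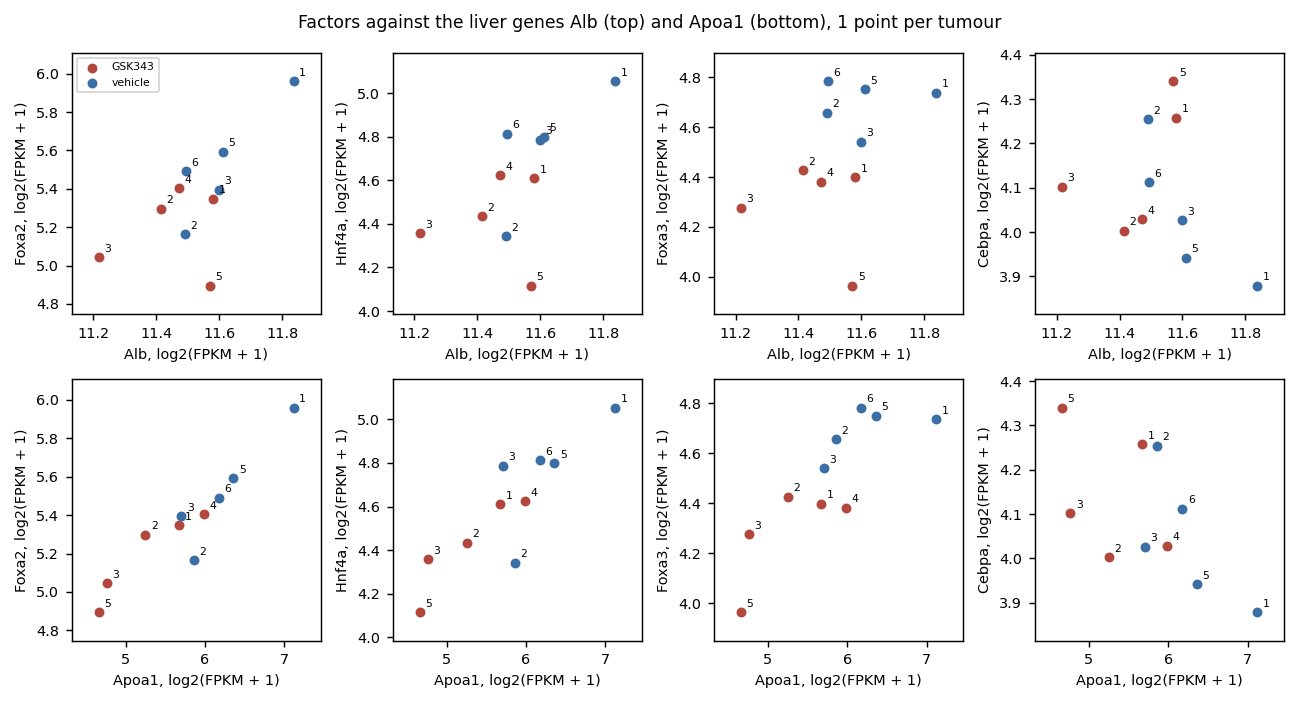
Log2(FPKM + 1) of Foxa2, Hnf4a, Foxa3 and Cebpa (vertical axes) against that of Alb (top) and Apoa1 (bottom) on the horizontal axes, 1 numbered point per tumour, GSK343 in red and vehicle in blue. Foxa2, Hnf4a and Foxa3 are higher where Apoa1 is higher (r of 0.94, 0.88 and 0.84), Cebpa runs the other way (r of -0.62), and the relations to Alb are looser.

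Among themselves, 7 factors had a positive r in every pair and Cebpa had a negative r with all 7. Of the 28 pairs, 21 had an r above 0, and these were the pairs without Cebpa. These signs turned in some of the alternatives run. On deviations from the group means, r was -0.20 for Foxa1 with Nr1h4, 0.085 for Cebpa with Nr5a2 and 0.074 for Cebpa with Foxa1. Without GSK343 replicates 3 and 5 it was 0.30 for Cebpa with Nr5a2, -0.17 for Nr5a2 with Nr1h4, -0.095 for Foxa2 with Nr5a2 and -0.033 for Foxa1 with Nr1h4. Without the 2 tumours farthest from the median, Foxa3 with Nr1h4 was at -0.046. After adjustment over the 28 pairs, 8 had a Pearson permutation p under 0.05, 5 of them positive and 3 negative, and 3 did so by rank. Those by rank were Hnf4a with Foxa2, Hnf4a with Prox1 and Foxa2 with Prox1. The share over pairs of all lines tested was not computed, so whether these counts exceed it was not tested. Lines outside the factors reached a like r, such as Gsta3 and Klf3 with Hnf4a at 0.95 each. Hnf4a and Foxa2 were the closest pair, with r = 0.95 (permutation p = 2e-05, adjusted p = 0.00056; rho 0.96), and their r was 0.93 on deviations from the group means and 0.90 without the 2 tumours farthest from the median of Hnf4a. The ratio of Foxa2 to Hnf4a was accordingly narrow, 1.64 to 1.86 in GSK343 tumours and 1.55 to 1.90 in vehicle tumours. Prox1 followed Hnf4a (r = 0.85, adjusted permutation p = 0.015) and Foxa2 (r = 0.82, adjusted permutation p = 0.0153). Foxa3 was related to Hnf4a (r = 0.78) and Foxa2 (r = 0.77), and both were 0.51 without GSK343 replicates 3 and 5, so they rest in part on those tumours. The family of pairs was chosen after the values were seen.

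Cebpa ran most strongly against Nr1h4 (r = -0.85, adjusted permutation p = 0.015; rho -0.72), followed by Foxa2 (r = -0.78, adjusted permutation p = 0.0330) and Hnf4a (r = -0.75, adjusted permutation p = 0.0465). By rank none of these relations passed (adjusted permutation p of 0.0954, 0.107 and 0.121). On deviations from the group means the r of Cebpa with Nr1h4 was -0.84. Without the 2 tumours farthest from the median it was -0.67, while the relation to Foxa2 was -0.49 and that to Hnf4a was -0.42, so these rest in part on such tumours. The ratio of Cebpa to Hnf4a was 0.648 to 1.18 in GSK343 tumours and 0.426 to 0.938 in vehicle tumours, and vehicle replicate 2 was the 1 vehicle tumour that reached into the GSK343 range. The ratios were chosen after the values were seen and were not tested.

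**Figure D4:**
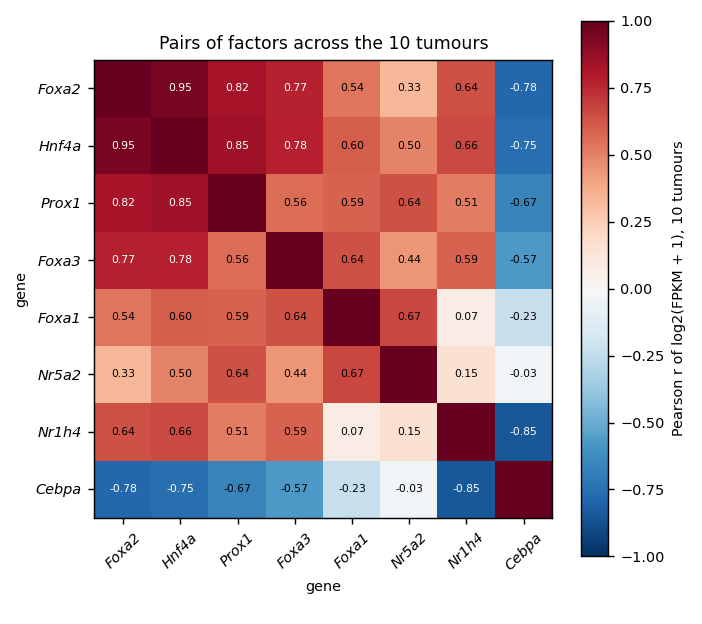
Pearson r of log2(FPKM + 1) over the 10 tumours for every pair of the 8 factors (both axes list the genes; colour runs from -1 to 1). Every pair without Cebpa is positive, with Foxa2 and Hnf4a the highest at 0.95, and the Cebpa row and column are negative.

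The levels of host-cell markers moved with several of the factors, and their part in these results was not tested. All 6 leukocyte markers had higher means after GSK343, with a median log2 difference of 0.78. By limma, none was called over all lines and 5 of 6 had an unadjusted p under 0.05 and were higher, against 10.7% of all lines. Their summed level was 471 to 814 FPKM in GSK343 tumours and 225 to 684 FPKM in vehicle tumours, and none of the 6 was at 0 in any tumour. Vehicle replicate 2 held the highest vehicle sum, 684 FPKM, and it was also the vehicle tumour lowest in Hnf4a, Foxa1, Foxa2, Nr5a2, Nr1h4 and Prox1. It was not the lowest in Foxa3, and in Cebpa it was the highest vehicle tumour. The leukocyte score, the mean log2(FPKM + 1) of the 6 markers, had an r of -0.90 with Foxa2 (permutation p = 0.00011, adjusted p = 0.00495 over 90 relations; rho -0.94). It was -0.88 with Hnf4a, -0.85 with Foxa3, -0.83 with Prox1 and -0.88 with Apoa1 (adjusted permutation p of 0.0126, 0.0131, 0.0196 and 0.0126). With Cebpa it was 0.75 (permutation p = 0.0145, adjusted p = 0.0436), while the rank correlation of 0.72 did not pass (adjusted permutation p = 0.0803). On deviations from the group means these r were -0.84 for Foxa2, -0.80 for Hnf4a, -0.66 for Foxa3, -0.90 for Prox1 and 0.74 for Cebpa. Without vehicle replicate 1 and GSK343 replicate 5, the tumours farthest from the median score, they were -0.89 for Foxa2, -0.80 for Hnf4a, -0.80 for Foxa3, -0.78 for Prox1 and 0.54 for Cebpa, so the relation to Cebpa rests in part on those 2. All values of a tumour share 1 library and its scaling. In bulk samples, fewer tumour cells and less RNA of a gene per tumour cell cannot be told apart.

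**Figure D5:**
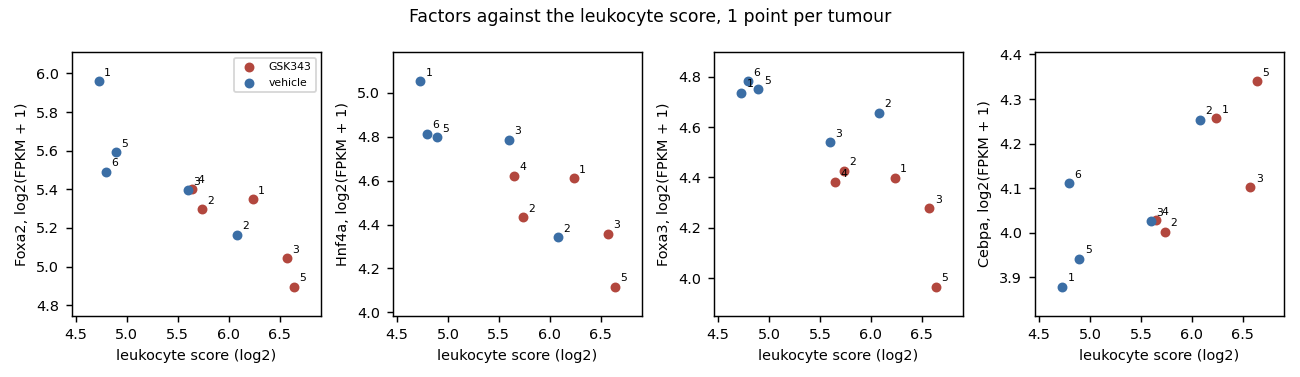
Log2(FPKM + 1) of Foxa2, Hnf4a, Foxa3 and Cebpa (vertical axes) against the leukocyte score (horizontal axes), 1 numbered point per tumour, GSK343 in red and vehicle in blue. Foxa2, Hnf4a and Foxa3 are lower where the score is higher (r of -0.90, -0.88 and -0.85) and Cebpa is higher there (r of 0.75), with vehicle replicate 2 among the GSK343 tumours on the score.

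With the leukocyte score in the limma model, the log2 difference between GSK343 and vehicle was 0.00 for Hnf4a, 0.06 for Foxa2 and 0.30 for Prox1, and -0.09 for Cebpa. The Prox1 value had an unadjusted limma p of 0.0456 and was not called, with an adjusted p of 0.999. Foxa3 and Foxa1 were at -0.23 each, against -0.40 and -0.31 without the covariate (unadjusted limma p of 0.0721 and 0.143, adjusted p of 0.999 for both). Mitochondrial genes took 7.17% and 7.11% of all FPKM in GSK343 replicates 3 and 5, against 2.63% to 5.05% in the others. Without those 2 tumours the difference was -0.29 for Foxa3, -0.23 for Foxa1, -0.20 for Hnf4a and -0.17 for Foxa2. With Alb in the model instead, it was -0.42 for Foxa3, -0.23 for Foxa1, -0.22 for Hnf4a and -0.17 for Foxa2. Foxa3 and Foxa1 therefore each had the same sign in all 3 fits, and none of the fits called them.

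Markers of other host cells gave further relations. The myeloid score, from all 7 markers, had an r of -0.94 with Foxa3 (permutation p = 5e-05, adjusted p = 0.0045), and -0.89 without the 2 tumours farthest from the median score. With Cebpa the myeloid score had an r of 0.60, which did not pass (adjusted permutation p = 0.138). Its summed level was 97.0 to 161 FPKM in GSK343 tumours and 38.4 to 96.8 FPKM in vehicle tumours. The granule genes Mpo and Elane were below the filter but are part of the score and the sums. Of the 5 tested myeloid markers, none was called and all 5 had higher means after GSK343, such as Csf3r, the receptor of a neutrophil growth factor, at 4.48 ± 1.06 FPKM in GSK343 tumours and 2.03 ± 0.822 FPKM in vehicle tumours (limma adjusted p = 0.189). The endothelial score had an r of 0.85 with Cebpa and -0.87 with Foxa2 (adjusted permutation p of 0.0181 and 0.0099), with summed levels of 33.2 to 50.3 FPKM in GSK343 tumours and 26.8 to 45.6 FPKM in vehicle tumours. Its rank correlation with Cebpa, 0.76, did not pass (adjusted permutation p = 0.0584). The fibroblast score had an r of -0.90 with Hnf4a (adjusted permutation p = 0.0126), with sums of 1433 to 2204 FPKM in GSK343 tumours and 1501 to 1885 FPKM in vehicle tumours. Dcn made up most of these sums, at 1082 ± 108 FPKM in GSK343 tumours and 1169 ± 112 FPKM in vehicle tumours, and was the 1 fibroblast marker with a lower mean after GSK343. The other 5 had higher means, 4 of them with an unadjusted limma p under 0.05, against 10.7% of all lines that were higher at that level. None was called, and the median log2 difference of the 6 was 0.60. Postn, a matrix protein, averaged 145 ± 73.3 FPKM in GSK343 tumours and 62.5 ± 11.97 FPKM in vehicle tumours (limma adjusted p = 0.191). Of lymphatic endothelium, which also uses Prox1, Flt4 and Pdpn passed the filter and Lyve1, Ccl21a and Mmrn1 did not, and the summed level was 12.4 to 17.9 FPKM in GSK343 tumours and 10.9 to 13.97 FPKM in vehicle tumours. The lymphatic score had an r of -0.51 with Prox1, which did not pass (adjusted permutation p = 0.213). With Foxa3 it was -0.82 (adjusted permutation p = 0.0222), and -0.47 without the 2 tumours farthest from the median score. The rank correlation with Foxa3 did not pass (adjusted permutation p = 0.126).

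Cholangiocyte markers were related positively to some factors and negatively to Cebpa. The cholangiocyte score, from all 6 markers, had an r of 0.86 with Foxa2 and 0.85 with Hnf4a (adjusted permutation p of 0.0131 and 0.0181). These were 0.67 and 0.74 without the 2 tumours farthest from the median score. Krt19 and Cdh1 were below the filter but are part of the score. With Prox1 it had an r of 0.76 and with Cebpa of -0.77 (adjusted permutation p = 0.0403 for each), and its relations to Foxa1, Foxa3, Nr5a2 and Nr1h4 did not pass (r of 0.56, 0.61, 0.29 and 0.65). Rank correlations with Prox1 and Cebpa, 0.75 and -0.62, did not pass (adjusted permutation p of 0.0632 and 0.147). Sox9, a progenitor and duct factor, averaged 23.2 ± 6.21 FPKM in GSK343 tumours and 34.1 ± 8.48 FPKM in vehicle tumours (limma adjusted p = 0.218). Markers of skeletal muscle (6 of 6 with higher means after GSK343, median log2 difference 1.66), keratinocytes (4 of 4 lower, median -1.16) and adipocytes (2 of 2 lower, median -0.85) differed in mean without a call. Summed muscle markers were 52.0 to 357 FPKM in GSK343 tumours and 2.71 to 88.6 FPKM in vehicle tumours. In keratinocyte markers the sums were 2.29 to 25.1 FPKM in GSK343 tumours and 3.31 to 124 FPKM in vehicle tumours, and in adipocyte markers they were 36.1 to 53.95 FPKM in GSK343 tumours and 43.0 to 102 FPKM in vehicle tumours. No member was related to the muscle or keratinocyte score after adjustment over the 90 relations. The adipocyte score had an r of 0.70 with Nr5a2 (adjusted permutation p = 0.0422), and 0.21 without the 2 tumours farthest from the median score. Its rank correlation with Nr5a2 did not pass (adjusted permutation p = 0.173).

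The wider liver network gave no call either. Of 20 other liver transcription factors, 14 were tested, 8 were lower and 6 higher, against 52.4% of all lines below 0, and the median log2 difference was -0.07. At an unadjusted limma p under 0.05, 2 were lower and 0 higher, against 6.86% and 10.7% of all lines. Onecut2, a cut-domain factor, averaged 2.80 ± 0.381 FPKM in GSK343 tumours and 3.59 ± 0.575 FPKM in vehicle tumours (limma adjusted p = 0.249). Tbx3, a T-box factor of hepatoblasts, averaged 17.6 ± 2.52 FPKM in GSK343 tumours and 21.5 ± 3.21 FPKM in vehicle tumours (limma adjusted p = 0.275). Cebpd, a relative of Cebpa, averaged 4.71 ± 1.05 FPKM in GSK343 tumours and 3.45 ± 0.900 FPKM in vehicle tumours (limma adjusted p = 0.297). The factors Hnf4g, Nr0b2, Nr1i2, Ppara, Gata6 and Creb3l3 were below the filter, and Nr1i2 was listed at 0 in every tumour.

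Of the secreted and metabolic hepatocyte genes, 13 of 21 were tested and all 13 had lower means after GSK343, with a median log2 difference of -0.30, none called, and 3 with an unadjusted limma p under 0.05. Of all lines tested, 52.4% were below 0 and 6.86% were lower at that unadjusted level. The 13 include Alb and Apoa1, and the 3 include Apoa1, both described above. Ttr, the thyroxine carrier, averaged 41.3 ± 15.9 FPKM in GSK343 tumours and 74.6 ± 25.7 FPKM in vehicle tumours (limma adjusted p = 0.215). Apoa2 averaged 2.07 ± 0.162 FPKM in GSK343 tumours and 3.58 ± 1.74 FPKM in vehicle tumours (limma adjusted p = 0.247). Among the rest, Apoc3, G6pc, Cps1 and Otc were listed at 0 in every tumour, and Tat, Pck1 and Asgr1 were below the filter, while Tf was not analysed here. The hepatocyte genes were thus uneven in these tumours, with Alb at 2380 FPKM or more in each and the urea cycle genes Cps1 and Otc listed at 0.

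Genes of the bile acid axis, among them targets of NR1H4 and NR5A2, were mostly below the filter. Of 15 genes of the bile acid axis, 3 were tested, and all 3 had lower means after GSK343, against 52.4% of all lines below 0. By limma, none was called and 0 had an unadjusted p under 0.05. Abcc2, a canalicular transporter, averaged 37.3 ± 8.61 FPKM in GSK343 tumours and 48.2 ± 9.92 FPKM in vehicle tumours (limma adjusted p = 0.356). Fgfr4, a fibroblast growth factor receptor, averaged 7.44 ± 1.67 FPKM in GSK343 tumours and 8.96 ± 1.84 FPKM in vehicle tumours (limma adjusted p = 0.467). Cyp27a1, a sterol hydroxylase, averaged 27.8 ± 3.75 FPKM in GSK343 tumours and 29.1 ± 4.70 FPKM in vehicle tumours (limma adjusted p = 0.811). Nr0b2, which encodes the FXR-induced repressor SHP, and Cyp7a1, the rate-limiting enzyme of bile acid synthesis, were among the 12 below it.

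Fetal liver genes and the drug's target gave no call. Of 5 fetal genes, 4 were tested, 2 were lower and 2 higher, with Afp, the fetal albumin, at 1775 ± 252 FPKM in GSK343 tumours and 2085 ± 197 FPKM in vehicle tumours (limma adjusted p = 0.298). Ezh2 averaged 44.8 ± 6.60 FPKM in GSK343 tumours and 55.2 ± 7.65 FPKM in vehicle tumours (log2 difference -0.30, limma adjusted p = 0.233). GSK343 blocks the enzyme's activity, so the Ezh2 transcript does not check the treatment labels. The other PRC2 genes tested, Ezh1, Suz12 and Eed, had log2 differences of -0.08, -0.08 and 0.08.

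The lines most like each factor were found by Pearson r over the 10 tumours, as a description with no test. Besides Foxa2, Hnf4a was most like Gsta3 and Klf3 (r = 0.95 each). Foxa2 was most like Echs1 (r = 0.97), Rcc1l and Cobll1 (r = 0.96 each). Foxa3 was most like Tulp3 (r = 0.95), Pip4k2c and Mrps9 (r = 0.94 each). Foxa1 was most like Gpat4 (r = 0.94), Nup43 (r = 0.93) and Gna12 (r = 0.92). Cebpa was most like Plxnd1 (r = 0.97), Dnajb11 (r = 0.96) and Retnia, spelled as in the table (r = 0.95). Nr5a2 was most like Lgr5 (r = 0.99), Mob3b (r = 0.97) and Zfp664 (r = 0.96). Lgr5, a receptor of R-spondins, averaged 25.2 FPKM in GSK343 tumours and 27.8 FPKM in vehicle tumours. Nr1h4 was most like Rwdd3 (r = 0.94), Scaper and Psg17 (r = 0.91 each), and Prox1 was most like Sgsm1, Rprd2 (r = 0.96 each) and Rcan2 (r = 0.95).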

How the data were processed

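RNA was selected by poly-A and sequenced from 10 tumours, 5 per group, which the design text calls biological replicates. Per the submitters' processing notes, reads were handled with StringTie 1.3.3b, HISAT2 2.1.0 and Trimmomatic 0.33 on mm10. Options, annotation and strand setting are not stated. The authors' deposited table names no unit, and its values were taken to be the authors' FPKM because they sum to 574547 to 623397 per tumour, with no fixed total. Low values stood on steps that would mean 38.6 to 51.0 M reads (M, mega) if each step were 1 read, but only 39.8% to 45.3% of low values fit, so whole reads were not recovered, depth remains an inference and no counting interval is given. Lines at 1 FPKM or more numbered 13985 to 14714. Another 10 columns were empty and unnamed.

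The 14496 lines whose mean was 1 FPKM or more were fitted as log2(FPKM + 1) in limma 3.58.1 under R 4.3.3, allowing the variance a trend with level, with Benjamini-Hochberg adjustment over all of them and calls at an adjusted p under 0.05, two-sided. On this scale, differences of weakly expressed genes come out too small. Correlations used scipy 1.17.1 with two-sided permutation p (100000 resamples over 10 tumours, exact below 10), adjusted over the 16, 28 or 90 relations of a family. The 28 pairs and 90 score relations, and the fits without both GSK343 tumours of high mitochondrial share, were added after the data were seen. Scores and sums took in every measured gene of a list, also those below the filter. The members and lists were chosen with earlier results of these data known. Genes named besides the members are Alb, Apoa1, Ezh2, up to 4 tested genes of a list with the smallest p, and the 3 lines most like each member; genes below the filter that are named are all such genes of their list or were picked for their known role. Alternatives covered the filter, pseudocount, scaling, variance model, tumour weights, covariates, the replicate number as a block, summed lines and each tumour left out. The limma step was tested on simulated data. Overlapping genes came from GENCODE release M21, which held 52566 of the 54986 gene identifiers, and promoters from RefSeq. Figures were drawn with matplotlib 3.10.9.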

Additional observations from a re-analysis of the deposited data

Results flagged for a closer look

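Of 120 sets of 5 tumours examined, 9 held a tumour far from the other 4 by Dixon's test, and chance gives about 1 in 20. None of the 8 factors was among them. GSK343 replicate 2 stood apart in Ezh2, at 56.3 FPKM against at most 44.3 FPKM in the other GSK343 tumours. GSK343 replicate 5, which had the lowest Hnf4a, Foxa2 and Foxa3, stood apart in Krt5 (3.88 FPKM, next 0.864), Krt14 (4.79 FPKM, next 1.56) and the keratinocyte score (1.87, next 0.62). Vehicle replicate 1, which had the highest Hnf4a and Foxa2, stood apart in Afp (2424 FPKM, next 2087) and in the score of secreted and metabolic hepatocyte genes (3.74, next 3.08). Vehicle replicate 2, which had the lowest Prox1, stood apart in Abcc2 (30.7 FPKM, next 51.3) and Pdpn (6.52 FPKM, next 3.27). Vehicle replicate 6 stood apart in Cfd (31.1 FPKM, next 5.57).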

How the results depend on the processing

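No factor was called under any of the 23 alternatives run, counting each tumour left out and the fit without GSK343 replicates 3 and 5. Foxa1 and Foxa3 kept their sign in all of them. The smallest adjusted limma p reached was 0.0667 for Foxa3 and 0.0716 for Hnf4a. The filter at a mean of at least 5 FPKM leaves out Foxa1, Nr5a2 and Nr1h4.

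The count of lines called was 12, and 6 with no filter on low values, 3 with a mean of at least 5, 7 with median-of-ratios scaling, 7 with quantile normalization, 2 with the leukocyte score, 3 with Alb as covariate and 4 without GSK343 replicates 3 and 5. Leaving out each tumour in turn gave 3 to 96, with 96 without vehicle replicate 2 and 37 without GSK343 replicate 1. The cause was not tested. With the replicate block, 2 lines and 0 members were called. The same-numbered tumours had correlations of -0.11, -0.33, 0.035 and -0.19 for numbers 1, 2, 3 and 5, and none of these GSK343 tumours was most like the vehicle tumour of its own number. The labels do not say that the numbers pair tumours, and so few weak correlations cannot decide it.

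Signs turned mostly under the leukocyte covariate. Its log2 differences were 0.0020 for Hnf4a, 0.063 for Foxa2, -0.090 for Cebpa, 0.033 for Nr5a2, 0.14 for Nr1h4, 0.30 for Prox1, 0.16 for Abcc2, -0.0031 for Adgre1, -0.032 for Cdh5, 0.053 for Cyp27a1, -0.047 for Eed, 0.14 for Fabp4, 0.14 for Fgfr4, 0.096 for Flt4, -0.072 for Pdpn, 0.038 for Suz12 and 0.043 for Tbx3. With Alb as covariate they were 0.051 for Cyp27a1, 0.068 for Gpc3 and -0.17 for Igf2, and Igf2 was -0.025 with quantile normalization. Without GSK343 replicates 3 and 5 they were 0.057 for Cyp27a1, 0.023 for Flt4 and 0.0049 for Nr5a2. Leaving out each tumour gave -0.17 to 0.0012 for Nr1h4, -0.13 to 0.021 for Cyp27a1 and -0.28 to 0.35 for Igf2.

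The factors at r of at least 0.7 with Apoa1 numbered 3, and 5 with quantile normalization. With Alb they numbered 0, then 2 without GSK343 replicates 3 and 5, and 0 to 2 leaving out each tumour. Weak relations turned sign. Without GSK343 replicates 3 and 5, r was 0.15 for Nr1h4 with Alb, -0.17 for Nr5a2 with Alb and -0.18 for Nr5a2 with Apoa1. Foxa3 with Alb gave -0.11 on deviations from the group means and -0.040 without the 2 farthest tumours. Without those 2 tumours Cebpa with Alb gave 0.13 and Nr1h4 with Apoa1 gave -0.24. Leaving out each tumour gave -0.41 to 0.11 for Cebpa, -0.39 to 0.070 for Nr1h4 and -0.17 to 0.53 for Nr5a2, all with Alb. No depth per tumour is given beside the inferred one, and low factors such as Nr1h4, Foxa1 and Nr5a2 have the fewest fragments behind their values.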
